A study of Mus musculus with 21 samples.

Results

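The comparison described here is the loss of Ezh2 in hepatocytes, with Ezh1 left intact, in mouse livers taken after repeated injury with carbon tetrachloride (CCl4). The E2KO liver column with CCl4 was set against the WT column with CCl4. The difference between them was taken as log2(FPKM + 1) in E2KO minus log2(FPKM + 1) in WT, where FPKM counts fragments relative to gene length and library size. Genes with at least 1 FPKM in at least 1 of the 2 columns were kept, which left 10588 of the 22520 genes in the table.

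The methyltransferases Ezh1 and Ezh2 serve in turn as the enzyme of the Polycomb complex PRC2, which silences genes by placing H3K27me3 on their histones. Resting hepatocytes hold little Ezh2, and dividing cells hold more. CCl4 is turned into a toxic radical by the hepatocyte P450 enzyme Cyp2e1, which kills hepatocytes around the central vein and sets off inflammation, hepatocyte division and, on repeated dosing, scarring.

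E2KO mice carried the floxed Ezh2 gene (Ezh2fl/fl) with Alb-Cre, a Cre driven by the albumin promoter. It acts in hepatocytes and, being on from the hepatoblast stage, can act in bile duct cells, while macrophages, endothelial and stellate cells keep Ezh2. DKO mice had the same Ezh2 deletion in animals null for Ezh1 (Ezh1-/-), E1KO mice lacked Ezh1 alone, and WT mice carried floxed Ezh2 without Cre. All were of a mixed 129SV::FVB/N::C57BL/6 background. All 4 genotypes received CCl4 at 2 ml/kg by intraperitoneal injection 2 times a week for 2 weeks, starting at 3 months of age, and were killed 24 hours after the last dose. Untreated livers of the same genotypes were sampled at 2 months and at 8 months; untreated livers of 3 months were not analysed here. The titles name 3 replicates per group (2 at 8 months), but each group has 1 column of values, and the sources used here do not give how replicates were combined. No value therefore carries a spread between animals, and the CCl4 difference alone has no test. A gene is called past 2-fold where the difference on the log2(FPKM + 1) scale is 1 or more in size, which describes these columns only. On this scale the fold of a gene of low level is understated.

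The column totals of the series ran from 531761 to 674119 FPKM, with 583963 FPKM in E2KO with CCl4 and 555696 FPKM in WT with CCl4. The 10 most abundant genes held 13.3% of the E2KO column and 12.2% of the WT column. The 25 hepatocyte secreted protein genes in the table summed to 35474 FPKM in E2KO, 40601 in DKO, 33115 in E1KO and 30713 in WT with CCl4, so all 4 columns held abundant hepatocyte RNA. The 8-month column labelled E1KO stood apart, where 15 skeletal muscle genes summed to 527.0 FPKM, while the sum was 2.53 to 5 FPKM in every other column, so the fits across conditions below were also made without it.

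Ezh2 RNA was at 3.92 FPKM in E2KO, 2.51 in DKO, 4.68 in E1KO and 5.68 in WT with CCl4. The E2KO level was 69.0% of WT. Untreated livers held less of it, with 0.84 FPKM in E2KO and 1.11 in WT at 2 months, and 0.79 FPKM in E2KO and 0.91 in WT at 8 months. E2KO was the lower of the pair in each condition, but E1KO, which carries no Ezh2 deletion, also lay below WT. Whole-liver gene levels include cells that keep Ezh2, and exons inside and outside the deletion are not separated in them. Ezh1 was at 1.96 FPKM in E2KO, 0.27 in DKO, 0.20 in E1KO and 2.05 in WT, so it was near the WT level in E2KO. The other tested PRC2 genes, among them the core subunit genes Eed and Suz12, differed by -0.24 (Aebp2) to 0.20 (Phf1), and none of the 10 was past 2-fold.

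E2KO and WT livers were close to each other after CCl4. The difference lay within 0.5 for 96.8% of the tested genes, with a 5th percentile of -0.26 and a 95th of 0.27, and the median was -0.004. It was above 0 for 48.2% of the tested genes and below 0 for 51.0%. In all, 52 genes were at least 2-fold higher in E2KO (0.491% of those tested) and 73 at least 2-fold lower (0.689%). At 1.5-fold these counts were 112 higher (1.06%) and 147 lower (1.39%). The same genes gave 240 higher (2.27%) and 289 lower (2.73%) in DKO against WT with CCl4. Just inside the 2-fold limit lay Cyp2c55 (-1.0) and Cyp2b10 (1.0), and just outside it on the lower side Wdfy1 (-0.99).

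Most of the genes past 2-fold were short noncoding gene models. Of the 125, 79 were miRNA (48), snoRNA (30) or snRNA (1) genes, and 60 of these 79 were listed at 0 in 1 of the 2 columns. They were 79 of the 124 small RNA genes tested (63.7%), against 46 of 10464 other genes (0.440%). The largest was Snord37, a box C/D snoRNA gene, at 1634 FPKM in E2KO, 1442 in DKO and 1379 in E1KO, and listed at 0 in WT. In the other direction Snord42b was listed at 0 in E2KO, DKO and E1KO and stood at 705.9 FPKM in WT. Snord72 was listed at 0 in E2KO and DKO and stood at 344.8 FPKM in E1KO and 579.1 FPKM in WT. Such models are short and often lie inside introns of longer genes, and the sources used here do not say how reads of host genes were assigned to them. The gene groups below therefore hold the other genes, of which 18 were higher and 28 lower.

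**Figure D1:**
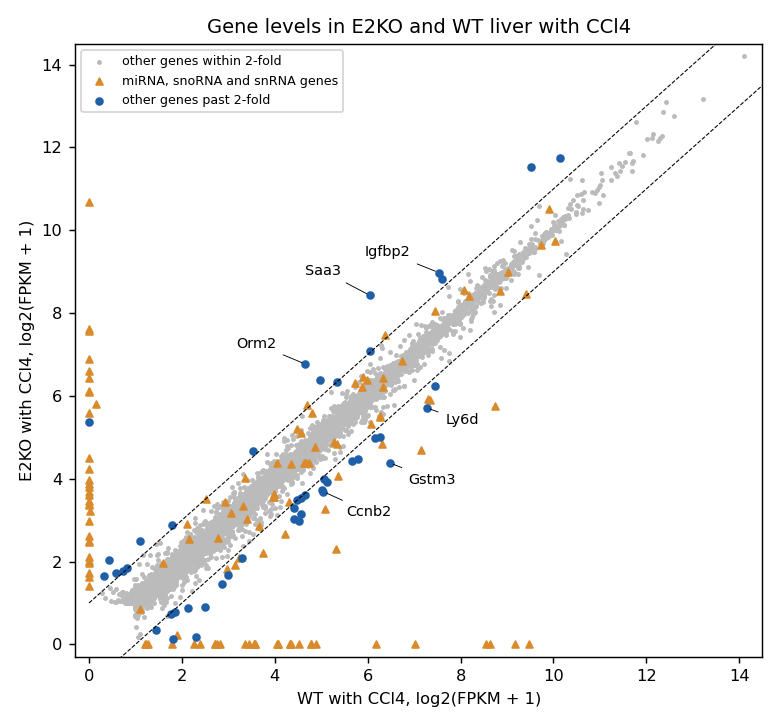
Level of each tested gene in E2KO liver with CCl4 (vertical axis) against WT liver with CCl4 (horizontal axis), both as log2(FPKM + 1), 1 point per gene; dashed lines mark 2-fold. Small RNA genes (triangles) line the axes because 60 of the 79 past 2-fold are listed at 0 in 1 column, while 46 other genes (blue) lie past the lines.

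Genes of mitosis were lower in E2KO than in WT, while genes of DNA replication were not. All 35 listed mitotic genes had a negative difference, with a median of -0.62 against -0.004 for all tested genes. Of the 35, 3 were past 2-fold and 19 past 1.5-fold, all lower. Among all 10588 tested genes, 51.0% were below 0, 0.689% at least 2-fold lower and 1.39% at least 1.5-fold lower. Ccnb2, a cyclin that activates Cdk1 at entry into mitosis, was at 11.9 FPKM in E2KO, 8.56 in DKO, 19.8 in E1KO and 32.0 in WT, a difference of -1.35. Cdca3, a trigger of mitotic entry, was at 30.6 FPKM in E2KO, 13.3 in DKO, 39.8 in E1KO and 70.8 in WT (-1.18). Ccnb1, a B-type cyclin like Ccnb2, was at 11.2 FPKM in E2KO, 5.35 in DKO, 14.3 in E1KO and 24.1 in WT (-1.04). In each of the 3 genes the WT column was the highest and the DKO column the lowest of the 4. The survivin gene Birc5 was at 54.3 FPKM in E2KO and 93.6 in WT (-0.78), the anaphase activator Cdc20 at 21.2 and 38.2 FPKM in E2KO and WT (-0.82), and the proliferation marker Mki67 at 5.6 FPKM in E2KO and 9.83 in WT (-0.71). The smallest difference was that of the spindle checkpoint kinase gene Ttk, at 4.56 FPKM in E2KO and 5.70 in WT (-0.27). The 35 genes together summed to 437.5 FPKM in E2KO, 177.6 in DKO, 421.6 in E1KO and 734.1 in WT. WT was the highest of the 4 columns for 34 of them and DKO the lowest for all 35, so E1KO lay below WT as well. Of all 10588 tested genes, WT was the highest for 2968 and DKO the lowest for 4297. In DKO 31 of the 35 were at least 2-fold lower, against 2.73% of all tested genes. Outside the list, the phosphatase gene Cdkn3, which acts on Cdk1 and Cdk2, was at 14.3 FPKM in E2KO and 34.0 in WT (-1.20); it was chosen after its value was seen.

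The 34 tested DNA replication genes had a median difference of 0.12, with 24 above 0 and 10 below, and none was past 2-fold. The licensing factor gene Cdc6 had the largest, with 5.54 FPKM in E2KO, 2.21 in DKO, 3.89 in E1KO and 3.30 in WT (0.60). The helicase subunit genes Mcm3 (26.9 FPKM in E2KO, 19.5 in WT) and Mcm4 (15.4 FPKM in E2KO, 11.5 in WT) were also above WT, by 0.45 and 0.39. The sliding clamp gene Pcna was at 159.9 FPKM in E2KO, 73.2 in DKO, 113.8 in E1KO and 146.5 in WT (0.13). Thymidine kinase Tk1 (-0.57) and the ribonucleotide reductase subunit Rrm2 (-0.44) went with the mitotic genes in sign. The list summed to 791.1 FPKM in E2KO, 382.2 in DKO, 563.6 in E1KO and 778.3 in WT. E2KO was the highest of the 4 columns for 23 of the 34 genes and DKO the lowest for all 34. Of all 10588 tested genes, E2KO was the highest for 2318 and DKO the lowest for 4297. In sum, E2KO was near WT for replication genes and near E1KO for mitotic genes. Both lists are expressed by proliferating cells of any type, and in whole-liver RNA fewer cells of a type and less RNA per cell cannot be told apart.

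The promoters of 3 mitotic genes past 2-fold are printed because many mitotic genes share a short element there, the cell cycle gene homology region TTTGAA, often beside CCAAT boxes. The sequences are from RefSeq on GRCm38.p6, 5′ to 3′ on the gene's strand, from 250 bases before to 50 bases after the start; Ccnb2 lies at chr9:70421505-70421804 on the minus strand, Cdca3 at chr6:124829926-124830225 on the plus strand and Ccnb1 at chr13:100786437-100786736 on the minus strand. Capitals mark TTTGAA and CCAAT on either strand.
Ccnb2: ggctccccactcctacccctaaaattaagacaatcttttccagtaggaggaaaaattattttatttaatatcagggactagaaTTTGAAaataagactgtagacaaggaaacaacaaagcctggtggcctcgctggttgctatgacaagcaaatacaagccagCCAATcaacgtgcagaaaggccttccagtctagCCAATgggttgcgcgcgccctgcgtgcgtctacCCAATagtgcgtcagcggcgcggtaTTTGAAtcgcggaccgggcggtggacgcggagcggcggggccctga
Cdca3: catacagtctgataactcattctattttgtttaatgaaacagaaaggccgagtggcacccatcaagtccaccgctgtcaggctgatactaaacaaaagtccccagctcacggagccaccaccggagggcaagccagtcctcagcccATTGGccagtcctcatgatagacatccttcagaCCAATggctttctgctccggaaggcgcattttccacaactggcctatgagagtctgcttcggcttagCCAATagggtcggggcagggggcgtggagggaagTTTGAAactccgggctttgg
Ccnb1: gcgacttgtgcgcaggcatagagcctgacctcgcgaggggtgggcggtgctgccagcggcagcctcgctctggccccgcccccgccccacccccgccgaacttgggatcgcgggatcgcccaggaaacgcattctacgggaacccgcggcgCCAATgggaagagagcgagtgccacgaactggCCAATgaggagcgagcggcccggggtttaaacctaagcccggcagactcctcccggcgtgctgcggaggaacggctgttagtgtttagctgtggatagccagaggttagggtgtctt
Ccnb2 held 2 matches to TTTGAA and 3 to CCAAT, Cdca3 held 1 and 3, and Ccnb1 held 2 CCAAT boxes without the 6 letters TTTGAA. Of 31 promoters found for 29 of the 35 mitotic genes, 23 (74.2%) held TTTGAA, against 16.2% of 37 promoters of replication genes and 17.9% of all 32851 promoters in the table. Both elements together stood in 71.0% of mitotic, 13.5% of replication and 6.95% of all promoters. CCAAT alone was in 83.9%, 62.2% and 37.4%. These matches describe the letters in this window and do not show binding.

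**Figure D2:**
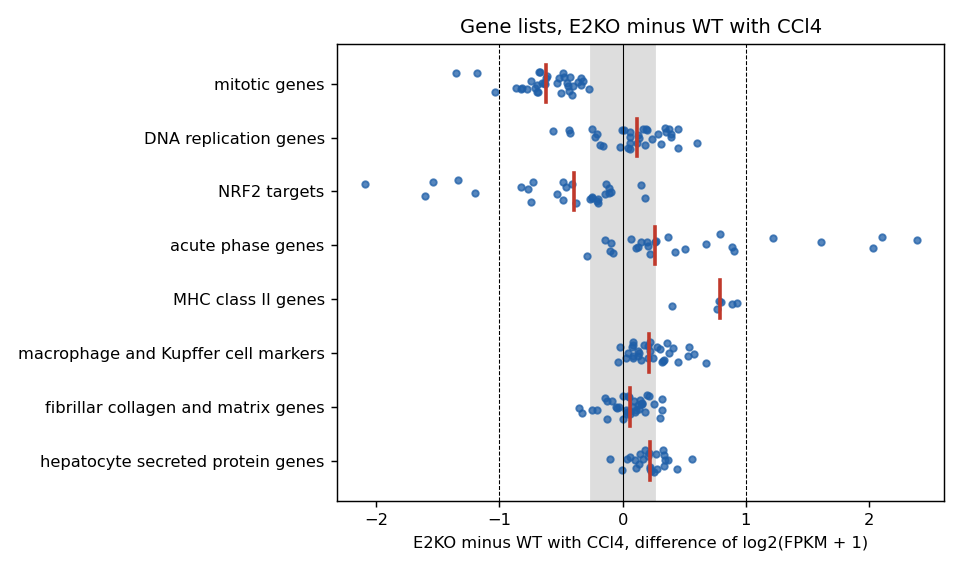
Difference of log2(FPKM + 1) between E2KO and WT with CCl4 (horizontal axis) for each tested member of 8 gene lists (points), with the list median (red bar); the grey band runs from the 5th to the 95th percentile of all tested genes and dashed lines mark 2-fold. All 35 mitotic genes lie left of 0 and all 6 MHC class II genes right of it, while replication genes straddle 0.

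Acute phase genes, which hepatocytes transcribe in answer to inflammatory cytokines, were higher in E2KO than in WT. Of 26 tested members, 5 were at least 2-fold and 9 at least 1.5-fold higher, none was past either limit downward, and the median was 0.26. Among all tested genes, 0.491% were at least 2-fold and 1.06% at least 1.5-fold higher. Serum amyloid A genes led. Saa3 was at 344.0 FPKM in E2KO, 83.0 in DKO, 172.5 in E1KO and 65.0 in WT (2.39). Saa2 was at 2965 FPKM in E2KO, 962.2 in DKO, 2425 in E1KO and 726.0 in WT (2.03). Saa1 was at 3458 FPKM in E2KO, 871.1 in DKO, 2473 in E1KO and 1136 in WT (1.61). E2KO was the highest of the 4 columns for all 3 Saa genes, and E1KO came next. Over the whole list E2KO was the highest column for 4 of 26 genes, DKO for 11 and E1KO for 10. Among all 10588 tested genes these columns were the highest for 2318, 3055 and 2152. The list's median differences from WT were 0.26 in E2KO, 0.38 in DKO and 0.60 in E1KO. The group was thus above WT in every mutant column, 3 differences that share the WT values. The orosomucoid gene Orm2 was at 108.0 FPKM in E2KO, 220.7 in DKO, 151.1 in E1KO and 24.3 in WT (2.11). Lcn2, which encodes an iron-siderophore binding protein, was at 451.9 FPKM in E2KO, 290.7 in DKO, 972.3 in E1KO and 193.7 in WT (1.22); it was chosen after its value was seen. For both, every mutant column was above WT. Below 2-fold, the fibrinogen-like hepatokine Fgl1 was at 1535 FPKM in E2KO and 819.1 in WT (0.91), the pentraxin Apcs at 491.1 and 283.8 FPKM in E2KO and WT (0.79), hemopexin Hpx at 8768 FPKM in E2KO and 5501 in WT (0.67), and haptoglobin Hp at 7405 FPKM in E2KO and 5216 in WT (0.51). The cytokine feedback gene Socs3 (2.92 FPKM in E2KO, 3.18 in WT) and the transcription factor gene Stat3 (15.2 FPKM in E2KO, 16.9 in WT) differed by -0.09 and -0.14. The list summed to 35842 FPKM in E2KO, 26018 in DKO, 39326 in E1KO and 23151 in WT. Saa1 and Saa2 are near-identical, as are the Orm genes, so how reads fell between members is uncertain.

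The Saa promoters are shown for the C/EBP element that acute phase genes of the liver often carry, TTGCNNAA, in capitals on either strand, from the same source and window; Saa1 lies at chr7:46742931-46743230 on the minus strand, Saa2 at chr7:46751583-46751882 on the plus strand and Saa3 at chr7:46715627-46715926 on the minus strand.
Saa1: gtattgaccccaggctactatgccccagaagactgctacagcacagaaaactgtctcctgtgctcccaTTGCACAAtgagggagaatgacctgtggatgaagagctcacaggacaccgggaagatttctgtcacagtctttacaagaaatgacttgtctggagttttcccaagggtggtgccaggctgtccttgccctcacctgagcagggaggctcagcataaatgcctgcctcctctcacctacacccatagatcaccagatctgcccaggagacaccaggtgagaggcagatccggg
Saa2: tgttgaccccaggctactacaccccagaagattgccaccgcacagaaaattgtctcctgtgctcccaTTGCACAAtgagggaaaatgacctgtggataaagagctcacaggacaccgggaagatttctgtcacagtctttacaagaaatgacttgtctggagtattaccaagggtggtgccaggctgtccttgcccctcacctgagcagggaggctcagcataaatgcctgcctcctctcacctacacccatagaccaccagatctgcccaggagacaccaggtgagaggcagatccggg
Saa3: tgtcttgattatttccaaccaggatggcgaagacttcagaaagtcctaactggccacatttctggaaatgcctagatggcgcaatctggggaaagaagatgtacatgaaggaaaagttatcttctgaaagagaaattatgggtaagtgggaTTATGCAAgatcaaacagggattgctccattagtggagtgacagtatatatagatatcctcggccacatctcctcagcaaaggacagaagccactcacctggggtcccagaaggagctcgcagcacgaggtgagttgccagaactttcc
Each of the 3 promoters held 1 match. Of 23 promoters found for 20 acute phase genes, 10 (43.5%) held the element, against 10.8% of all promoters.

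The direction in acute phase genes was the opposite of that in untreated young livers. At 2 months Saa3 was at 13.9 FPKM in E2KO and 146.9 in WT, Saa2 at 260.5 FPKM in E2KO and 2175 in WT, Saa1 at 465.8 FPKM in E2KO and 2517 in WT, and Lcn2 at 7.28 FPKM in E2KO and 155.7 in WT. The 2-month list median was -0.79, with 24 of the 26 below 0, and the 8-month median was -0.15. The 2-month WT column was the one that stood out, since E1KO at 2 months also had less, with 41.0 FPKM of Saa3 and 239.9 FPKM of Saa1. Neutrophil markers were low throughout, with the 13 in the table at 24.7 FPKM in sum in E2KO, 59.1 in DKO, 38.8 in E1KO and 15.8 in WT with CCl4.

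**Figure D3:**
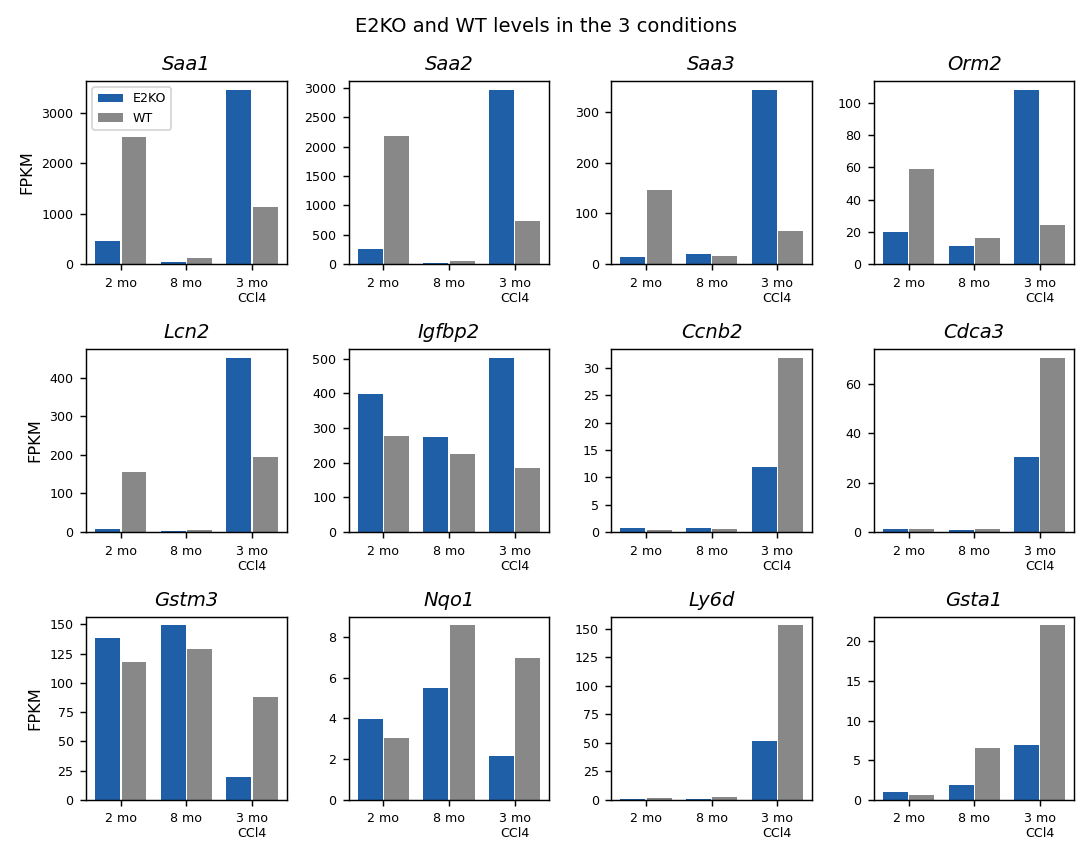
FPKM of 12 genes in E2KO (blue) and WT (grey) liver of 2 months, of 8 months, and of 3 months with CCl4, 1 bar per column, so no error bars can be drawn. Saa1, Saa2, Saa3, Orm2 and Lcn2 are higher in E2KO with CCl4 and lower in E2KO at 2 months, while Ccnb2, Cdca3 and Ly6d reach their high levels with CCl4.

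Detoxification genes of the NRF2 group were lower in E2KO. NRF2 is the transcription factor that answers oxidative and electrophilic stress by raising glutathione and quinone-reducing enzymes. Of 28 tested targets, 26 were below 0, 5 at least 2-fold and 9 at least 1.5-fold lower. None was past either limit upward, and the median was -0.39. Among all tested genes, 51.0% were below 0, 0.689% at least 2-fold lower and 1.39% at least 1.5-fold lower. Gstm3, a glutathione S-transferase, was at 19.9 FPKM in E2KO, 42.4 in DKO, 132.0 in E1KO and 87.9 in WT (-2.09). The carbonyl reductase Cbr3 was at 0.87 FPKM in E2KO, 3.83 in DKO, 1.83 in E1KO and 4.68 in WT (-1.6). The quinone reductase Nqo1 was at 2.17 FPKM in E2KO, 8.09 in DKO, 3.81 in E1KO and 6.98 in WT (-1.33). For these 3 genes E2KO was the lowest of the 4 columns. Gsta1 was at 6.94 FPKM in E2KO, 2.67 in DKO, 9.93 in E1KO and 22.01 in WT (-1.54). Gsta2, with 3.27 FPKM in E2KO and 8.82 in WT (-1.20), and Gm3776, with 1.76 FPKM in E2KO and 6.26 in WT (-1.4), are closely related to Gsta1 and may share its reads; both were chosen after their values were seen. The abundant Gstm1 was at 693.2 FPKM in E2KO, 1234 in DKO, 1141 in E1KO and 1232 in WT (-0.83), and Gsta3 at 481.6 FPKM in E2KO, 834.0 in DKO, 278.8 in E1KO and 820.0 in WT (-0.77). The rate-limiting enzyme gene of glutathione synthesis, Gclc, was at 41.4 FPKM in E2KO and 58.2 in WT (-0.48). The heme oxygenase gene Hmox1 (20.7 FPKM in E2KO, 18.1 in WT, 0.18) and Gstp2 (0.15) were the only members above 0. E2KO was the lowest of the 4 columns for 14 of the 28 targets, against 1566 of all 10588 tested genes. DKO was the lowest for 10, against 4297 of all tested genes. WT was the highest column for 15, against 2968 of all tested genes. The medians against this same WT column were -0.39 in E2KO, -0.26 in DKO and -0.23 in E1KO, so the other mutants also lay below it. The list median was 0.26 at 2 months and -0.11 at 8 months. The antioxidant response element TGACNNNGC was in 18.2% of the 33 promoters found for these genes and in 12.4% of all promoters. It was in 22.6% of mitotic, 10.8% of replication and 4.35% of acute phase promoters, so it did not set these genes apart.

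Antigen presentation genes of MHC class II were higher in E2KO, but also in the other mutants. All 6 tested members were above 0 and 5 were at least 1.5-fold higher, with a median of 0.79 and none past 2-fold. Among all tested genes, 48.2% were above 0 and 1.06% at least 1.5-fold higher. H2-Aa, the alpha chain of I-A, was at 44.5 FPKM in E2KO, 80.0 in DKO, 42.6 in E1KO and 22.9 in WT (0.93), and the invariant chain Cd74 at 67.8 FPKM in E2KO, 125.1 in DKO, 65.4 in E1KO and 36.3 in WT (0.88). WT was the lowest of the 4 columns for all 6 members. Their median was 0.72 at 2 months and -0.32 at 8 months. Of 32 macrophage and Kupffer cell markers, 30 were above 0 with a median of 0.21 and 1 was past 1.5-fold. WT was the lowest column for 29 of them, against 1906 of all 10588 tested genes. The 33 such markers in the table summed to 1019 FPKM in E2KO, 1476 in DKO, 1628 in E1KO and 844.7 in WT. The lysozyme gene Lyz1 had the largest difference (13.8 FPKM in E2KO, 8.27 in WT, 0.68), and the Kupffer cell lectin Clec4f was at 30.5 FPKM in E2KO and 26.0 in WT (0.22). The 19 lymphocyte markers in the table summed to 13.6 FPKM in E2KO, 32.4 in DKO, 10.9 in E1KO and 8.90 in WT. The B cell receptor component Cd79a was at 1.58 FPKM in E2KO and 0.37 in WT (0.91), and the B cell chemokine Cxcl13 at 3.12 FPKM in E2KO, 0.74 in DKO, 0.62 in E1KO and 0.35 in WT (1.61). What part immune cell content has in these values was not tested.

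Genes of scar formation lay close together in E2KO and WT. None of 37 matrix genes was past 1.5-fold, and their median was 0.06, which is -0.003 when each column is divided by its total. The fibrillar collagen Col1a1 was at 16.1 FPKM in E2KO, 17.5 in DKO, 23.4 in E1KO and 15.6 in WT (0.04), and Col3a1 at 32.7 FPKM in E2KO and 29.1 in WT (0.16). The largest difference was that of osteopontin, Spp1, at 310.9 FPKM in E2KO, 684.0 in DKO, 643.9 in E1KO and 397.6 in WT (-0.35). Of 21 stellate cell and myofibroblast markers, 11 were above 0 and 10 below (median 0.04, or -0.004 by column totals). Reln, the stellate cell gene for reelin, was the 1 past 1.5-fold, at 4.24 FPKM in E2KO, 8.01 in DKO, 3.76 in E1KO and 7.23 in WT (-0.65). The myofibroblast actin gene Acta2 was at 31.4 FPKM in E2KO and 37.6 in WT (-0.25). Medians were -0.02 for 20 sinusoidal endothelial and -0.06 for 10 cholangiocyte and progenitor markers, with none past 1.5-fold. With 1 column a genotype these values do not exclude a change of a size that animals would show.

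Hepatocyte metabolism showed a small set of genes that were lower in E2KO and higher in DKO than in WT. Cyp2e1, the enzyme that activates CCl4, was at 386.1 FPKM in E2KO, 3857 in DKO, 151.1 in E1KO and 463.7 in WT, so E2KO lay near WT (-0.26) and DKO far above it. The coumarin hydroxylase gene Cyp2a5 was at 31.2 FPKM in E2KO, 225.3 in DKO, 2.42 in E1KO and 75.7 in WT (-1.25). Its close relative Cyp2a4 was at 0.84 FPKM in E2KO, 191.0 in DKO, 2.08 in E1KO and 3.36 in WT (-1.24). For these near-identical genes the assignment of reads is uncertain. Cyp2c55 was at 10.2 FPKM in E2KO, 119.6 in DKO, 17.7 in E1KO and 21.4 in WT (-1.0). Oat, the pericentral ornithine aminotransferase, was at 14.9 FPKM in E2KO, 173.5 in DKO, 37.4 in E1KO and 32.4 in WT (-1.07). The carboxylesterase Ces1g, chosen after its value was seen, was at 21.1 FPKM in E2KO, 119.5 in DKO, 14.1 in E1KO and 54.4 in WT (-1.32). These 5 are all the genes at least 2-fold lower in E2KO and at least 2-fold higher in DKO. In the other direction Cyp2b10, the P450 induced through the receptor CAR, was at 80.1 FPKM in E2KO, 134.3 in DKO, 93.1 in E1KO and 39.5 in WT (1.0). As a group, 27 xenobiotic P450 genes had a median of 0.03 in E2KO, which is -0.04 by column totals, with 1 higher and 3 lower past 2-fold. In DKO their median was 0.80, with 13 at least 2-fold higher, against 2.27% of all tested genes. The 15 pericentral genes had a median of -0.08 in E2KO and 0.75 in DKO. Hox genes, classical targets of Polycomb, did not reach 1 FPKM in either column. All 39 together summed to 3.22 FPKM in E2KO, 37.4 in DKO, 4.54 in E1KO and 3.25 in WT.

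**Figure D4:**
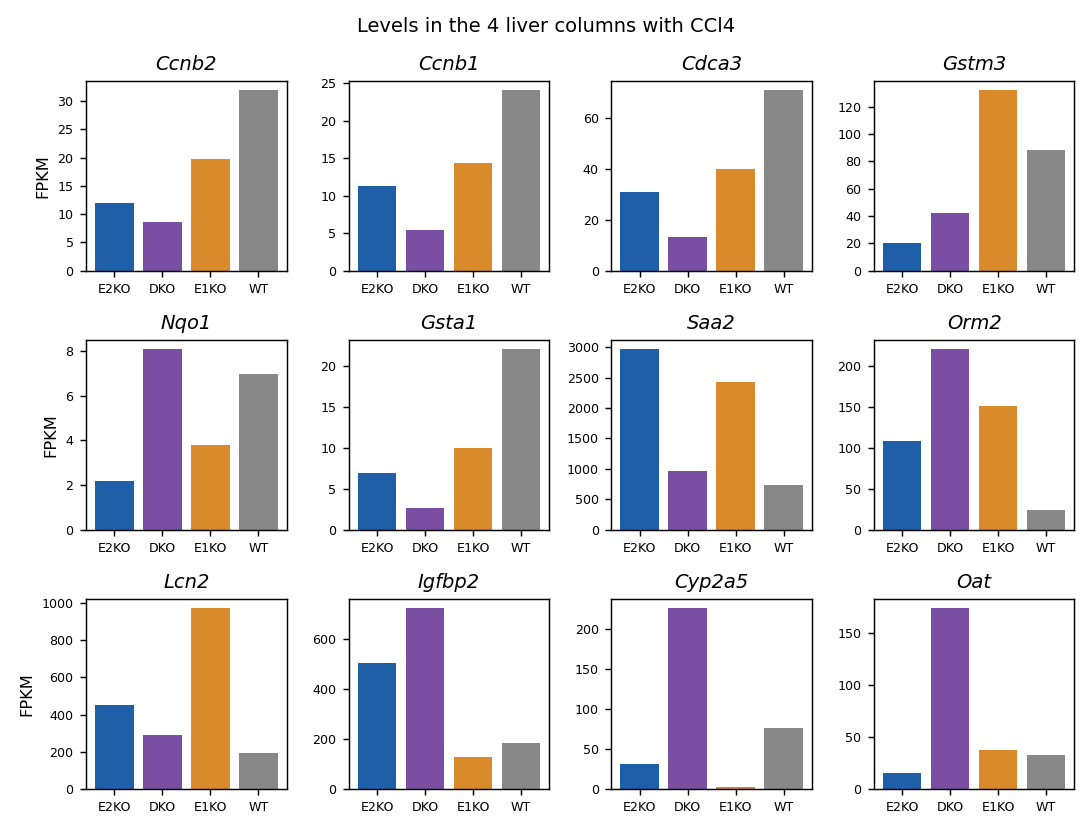
FPKM of 12 genes in the 4 CCl4 columns, in the order E2KO, DKO, E1KO and WT, 1 bar per column without error bars and with an axis of its own from 0 for each gene. WT is the highest bar for Ccnb2, Ccnb1 and Cdca3, E2KO the highest for Saa2, and DKO the highest for Cyp2a5 and Oat, where E2KO lies below WT.

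Other genes past 2-fold included those of the secreted hepatocyte factors Igfbp2 and Fgf21. Igfbp2, a binding protein of insulin-like growth factors, was at 503.9 FPKM in E2KO, 722.7 in DKO, 127.5 in E1KO and 183.7 in WT (1.45). Fgf21, a fasting and stress hormone of the liver, was at 4.64 FPKM in E2KO, 1.62 in DKO, 0.71 in E1KO and 1.15 in WT (1.39). The deiodinase gene Dio1 was at 82.4 FPKM in E2KO, 64.1 in DKO, 69.2 in E1KO and 30.3 in WT (1.41). Igfbp2 was above WT in E2KO and DKO and below it in E1KO, Fgf21 was highest in E2KO, and Dio1 was above WT in every mutant column. Afp, the fetal albumin-like protein that returns in regenerating liver, was at 12.2 FPKM in E2KO, 21.1 in DKO, 21.4 in E1KO and 31.3 in WT (-1.29). Ly6d, a GPI-anchored surface protein, was at 51.4 FPKM in E2KO, 50.3 in DKO, 78.3 in E1KO and 153.2 in WT (-1.56). For Afp and Ly6d the WT column was the highest of the 4. The methyltransferase gene Inmt was at 74.2 FPKM in E2KO, 238.9 in DKO, 41.4 in E1KO and 172.9 in WT (-1.21). Gdpd3, of the glycerophosphodiester phosphodiesterase family, was at 0.13 FPKM in E2KO, 0.13 in DKO, 0.19 in E1KO and 3.94 in WT (-2.13). Untreated E2KO livers held it at WT levels or above, with 16.2 FPKM in E2KO and 4.42 in WT at 2 months and 10.2 FPKM in E2KO and 10.6 in WT at 8 months, while E1KO and DKO stayed at 0.20 to 0.44 FPKM. The noncoding LOC100302567 was listed at 0 in WT with CCl4 and stood at 24.9 to 40.5 FPKM in the mutants. The male-biased monooxygenase-like gene Moxd1 (2.13 FPKM in E2KO, 0.25 in WT, 1.32) and the adipose gene Cfd (2.61 FPKM in E2KO, 0.75 in WT, 1.04) were low in both columns. Of 5 tested adipose genes, 4 were above 0, Adipoq among them at 1.35 FPKM in E2KO and 0.22 in WT, while the abundant Car3 was at 854.1 FPKM in E2KO and 1139 in WT (-0.42). The 10 adipose genes in the table summed to 910.7 FPKM in E2KO and 1179 in WT. The globin gene Hbb-b2 was at 0.10 FPKM in E2KO and 2.50 in WT (-1.67), while its near-identical neighbour Hbb-b1 was at 10.02 FPKM in E2KO and 11.1 in WT. Igfbp2, Dio1, Ly6d, Inmt and Gdpd3 were chosen after their values were seen.

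The agreement with DKO was partial. Both differences use the same WT column, so a WT value that is high or low moves them together. Of the 52 genes higher in E2KO, 22 were also at least 2-fold higher in DKO and 2 at least 2-fold lower. Of the 73 lower in E2KO, 41 were at least 2-fold lower in DKO and 5 at least 2-fold higher. Among all 10588 tested genes, 240 (2.27%) were at least 2-fold higher in DKO than in WT and 289 (2.73%) lower. These shares were not counted without small RNA genes. Without small RNA genes the same-direction counts were 5 of 18 higher (LOC100302567, Orm2, Igfbp2, Dio1 and Cyp2b10) and 14 of 28 lower, the 3 mitotic genes, Cdkn3, Gstm3, Gsta1, Ly6d and Gdpd3 among them. The opposite-direction genes were the 5 described above and BC002163, with 24.3 FPKM in E2KO, 0.44 in DKO, 10.2 in E1KO and 10.6 in WT. The Saa genes were near WT in DKO, with differences of 0.35 for Saa3, 0.41 for Saa2 and -0.38 for Saa1. E1KO, which carries no Ezh2 deletion, shares this WT column too, and its agreement was not counted. Its differences were 4.96 for LOC100302567, 2.59 for Orm2, -0.52 for Igfbp2, 1.17 for Dio1 and 1.21 for Cyp2b10. For the lower genes named here they were -0.66 (Ccnb2), -0.81 (Cdca3), -0.71 (Ccnb1), -0.31 (Cdkn3), 0.58 (Gstm3), -1.07 (Gsta1), -0.96 (Ly6d) and -2.05 (Gdpd3).

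**Figure D5:**
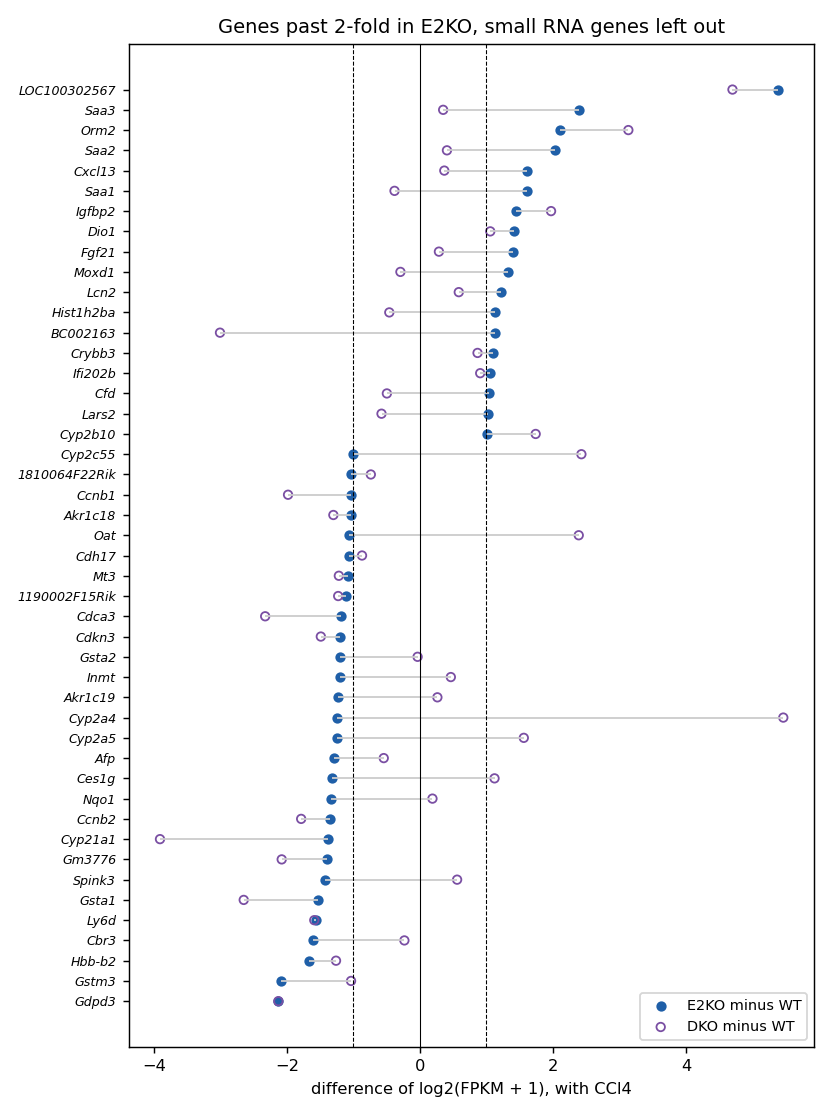
Difference from WT in log2(FPKM + 1) with CCl4 (horizontal axis) in E2KO (filled) and DKO (open) for the 46 genes past 2-fold in E2KO once small RNA genes are left out, ordered by the E2KO value; dashed lines mark 2-fold and both differences use the same WT column. In 19 of the 46 the DKO point is past the same line, and in 6 past the opposite one.

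The E2KO difference with CCl4 was set against those of untreated livers, which use other columns. At 2 months the same genes gave 29 at least 2-fold higher (0.274%) and 68 at least 2-fold lower (0.642%) in E2KO than in WT, and at 8 months 131 (1.24%) and 126 (1.19%). Of the 125 genes past 2-fold with CCl4, 12 were past it in the same direction at 2 months and 20 in the opposite one, and at 8 months 16 and 28. Without small RNA genes these were 1 and 10 at 2 months, and 4 and 7 at 8 months. Moxd1 was the 1 gene at 2 months. Ly6d, Gsta1 and Cyp21a1, all lower, and Lars2, higher, were the 4 at 8 months. The 10 opposite genes at 2 months were Saa1, Saa2, Saa3, Orm2, Lcn2, Crybb3, BC002163, Lars2, Gdpd3 and Gsta2. Only Mir3112, a miRNA gene, was past 2-fold higher in all 3 conditions, with 13.6 FPKM in E2KO with CCl4 and listed at 0 in WT.

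Tests were possible only across conditions. A limma fit with additive terms for genotype and condition asked whether E2KO differed from WT on average over the 3 conditions, with the departure of the 12 columns from additivity as the spread. It called 0 of 11394 genes at an adjusted p under 0.05 (0%), with 155 at an unadjusted p under 0.05; Ezh2 itself stood at -0.24 (SE 0.19, adjusted p = 1). A second limma fit added a term for E2KO with CCl4, which measures how far that column lies from what the other 11 and the additive terms give. It also called 0 of 11394 genes (0%), with 307 at an unadjusted p under 0.05. Gdpd3 stood at -3.29 (SE 0.50, adjusted p = 0.774) and Saa3 at 2.66 (SE 1.18, adjusted p = 0.983) in this limma fit. Gstm1 stood at -1.04 (SE 0.31, adjusted p = 0.983) and Ccnb2 at -0.55 (SE 0.79, adjusted p = 0.983). Snord72 stood alone among the genes described above in being called when columns were left out of this fit. Its term was -8.84 without DKO and -9.34 with only WT and E2KO. These values rest on the listed 0 in E2KO with CCl4, and few columns were left to give a spread. At 2 months Snord72 was at 23.2 FPKM in E2KO and 18.3 in WT, and at 8 months it was listed at 0 in both. With all columns in the fits, no gene difference described above is supported by a test, and a p that misses the threshold does not show that the livers were alike.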

How the data were processed

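RNA-seq of whole mouse liver was analysed from 12 groups (4 genotypes in 3 conditions). Per the labels' protocols, libraries were made with the TruSeq kit from 1 ug of total RNA with SuperScript II. A single table of FPKM values, with 22520 genes and 1 column per group, is what the authors deposited. The submitters' processing notes name, in no stated role, BWA, CASAVA, Cufflinks, HOMER, SICER and TopHat and the mm9 assembly; the sources used here do not give versions, strand or how replicates were handled. The table holds no read counts, so the depth is unknown. The 9 ChIP-seq samples are not analysed here.

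The deposited FPKM values were used as log2(FPKM + 1), and genes of at least 1 FPKM in either CCl4 column were compared. Calls are 2-fold differences with no test. limma 3.58.1 in R 4.3.3 (eBayes with a trend) was fitted on genes that reached 1 FPKM in 2 or more columns, with Benjamini-Hochberg adjustment over all 11394 genes, and was tested on simulated data. The other steps used Python 3.11.15 with pandas 2.3.3. Small RNA genes were taken from RefSeq biotypes or symbols, promoters by symbol from RefSeq GRCm38.p6. The members and the 38 gene lists, written from general knowledge, were chosen with earlier results of these data known. Genes were named by rule: Ezh1 and Ezh2, the 15 highest and 15 lowest differences, the 10 highest and 10 lowest among genes of 10 FPKM or more, up to 4 members of a list past 2-fold or else the largest, genes called by limma, and genes past 2-fold in all 3 conditions. Other members of the lists are given as examples of their group, chosen after their values were seen. Genes outside both the rule and the lists are marked in the text, apart from BC002163, Crybb3, Cyp21a1 and Lars2. These were also chosen after their values were seen. Wdfy1 was named for its place next to the 2-fold limit. Alternatives were other pseudocounts, scalings, filters, thresholds and sets of columns.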

Additional observations from a re-analysis of the deposited data

How the results depend on the processing

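Of the 125 genes past 2-fold, the count stayed within 1.5 times under a pseudocount of 0.1 (152), the median difference set to 0 (124), division by column totals (137), no filter (125) and a filter of 5 FPKM (97). At a 1.5-fold threshold there were 259 genes, 112 higher and 147 lower, with 141 past it the same way in DKO and 3 the same way at 2 and 8 months. Without small RNA genes, a choice made after seeing the data, there were 46 genes past 2-fold, 18 higher and 28 lower. Of these, 19 were past it the same way in DKO and 0 the same way at 2 and 8 months. With small RNA genes kept, the 2-fold counts were 125, 52, 73, 63 and 1 in the same order. With a pseudocount of 0.1, 2 genes were past 2-fold in all 3 conditions. Column totals moved the median of all genes by 0.064. Among single genes, Cd79a passed 2-fold with a pseudocount of 0.1 (1.84) and by column totals (1.15), Cyp2b10 (0.94) and Lars2 (0.95) lost their call by column totals, Cyp2c55 (-0.996) with the median set to 0, and none changed sign.

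The additive limma fit called 0 genes under every alternative, including leaving out each condition. The fit with a term for E2KO with CCl4 called 0 genes by column totals, 1 with a pseudocount of 0.1 (Mir1930), 1 without the 8-month E1KO column (Mir3064), 3 without the DKO columns (Mir1930, Mir99a and Snord72), 7 with only WT and E2KO columns, all small RNA genes, and 19 with no filter. The added term fits the E2KO column with CCl4 exactly, so the spread comes from the other columns. Mir16-1, Mir3109 and Mir669j, called with no filter, were listed at 0 in all of those columns. The other differences called with no filter were small, from 0.07 (Lce3c) to 0.41 (Defb5). What caused the calls was not tested. No paired analysis was possible because each group has 1 column, with no replicate number. With 1 value per group and unknown depth, neither the spread between animals nor counting error can be given, and values of genes near 1 FPKM and of short gene models are the least certain.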

Other observations

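Metabolic gene groups not described above differed from WT by small medians in E2KO with CCl4. Of 28 genes listed for fatty acid oxidation, 22 were above 0 (median 0.10, or 0.03 by column totals). The 1 past 2-fold was Fgf21, a hormone gene placed on that list. E2KO was the highest of the 4 columns for 19 of the 28, against 2318 of all 10588 tested genes. The omega-hydroxylase gene Cyp4a14 was at 142.4 FPKM in E2KO, 280.1 in DKO, 84.9 in E1KO and 77.9 in WT (0.86). Of 31 lipogenic and cholesterol synthesis genes, 25 were above 0 (median 0.15), while the desaturase gene Scd1 was at 119.4 FPKM in E2KO, 592.1 in DKO, 148.7 in E1KO and 190.2 in WT (-0.67). Of 21 male-biased liver genes, 18 were above 0 (median 0.30 in E2KO, -0.36 in DKO), 3 were at least 1.5-fold higher and 1 at least 1.5-fold lower, and the pheromone-binding protein gene Mup20 was at 6251 FPKM in E2KO, 290.2 in DKO, 5242 in E1KO and 3518 in WT (0.83). The metallothionein gene Mt2 was at 130.3 FPKM in E2KO, 1001 in DKO, 260.5 in E1KO and 214.6 in WT (-0.72).

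Medians were 0.14 for 23 interferon-stimulated genes, 0.11 for 25 unfolded protein response genes, -0.10 for 24 p53 targets and -0.01 for 18 clock genes, with none past 1.5-fold. The bile acid enzyme gene Cyp8b1 was at 26.1 FPKM in E2KO, 41.8 in DKO, 23.3 in E1KO and 41.5 in WT (-0.65), and the gluconeogenic gene Pck1 at 340.1 FPKM in E2KO, 801.2 in DKO, 597.3 in E1KO and 216.0 in WT (0.65). All 4 tested CDK inhibitor genes were below 0, led by Cdkn2c at 15.6 FPKM in E2KO and 19.1 in WT (-0.27).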
